A study of Mus musculus with 180 samples.

Results

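MK-2206 and GSK-2110183 are inhibitors of the serine/threonine kinase AKT, and the data hold 3 RNA-seq samples of mouse macrophages treated with each of them, 6 of 180 samples in all. The members were taken by their labels, as the 2 AKT inhibitors among 58 clinical kinase inhibitors (CKIs), with earlier results of these data known. The cells were bone-marrow-derived macrophages (BMDMs), grown in the laboratory from the marrow of wild type male C57/BL6 mice 6 to 8 weeks old. They received one CKI or the solvent DMSO for 1 h and then lipopolysaccharide (LPS), a bacterial cell wall component sensed by the receptor TLR4, at 10 ng/ml for 2 h. Every group, DMSO included, was therefore LPS-stimulated, and no unstimulated cells are part of the comparisons. Each CKI had 3 samples, described in the methods as independent biological replicates, and DMSO had 6, labelled as 2 sets of 3. The CKIs were given at low nanomolar concentrations that differed between MK-2206 and GSK-2110183, so their values are set side by side below and the difference between them was not tested.

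AKT acts downstream of phosphoinositide 3-kinase (PI3K). PI3K makes the membrane lipid PIP3, which recruits AKT, and the kinases PDK1 and mTORC2 then phosphorylate and activate it. Active AKT phosphorylates FOXO transcription factors, which leave the nucleus and stop driving their target genes, the TSC complex, which releases the growth kinase mTORC1, and GSK3. Through mTORC1, AKT signalling is also known to promote SREBP-driven sterol and fatty acid synthesis. In macrophages the pathway is engaged by TLR4 and by the growth factor CSF1, and it tunes cytokine production. MK-2206 is an allosteric inhibitor that keeps AKT in an inactive form, whereas GSK-2110183 (afuresertib) competes with ATP.

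The values are exonic read counts per gene that were scaled on invariant genes and rounded to whole numbers, called normalised read counts here. Their sums ranged from 9.48 M to 11.8 M over the 12 AKT inhibitor and DMSO libraries. The sequencing depth behind them, estimated from the steps between low values, was 11.4 M to 15.1 M reads in the 11 libraries where it could be read. The 12 macrophage markers summed to between 136759 and 285173 normalised read counts in these libraries. Of the markers of other cells, the 10 neutrophil and progenitor markers summed to 578 to 1439 with MK-2206, 480 to 1648 with GSK-2110183 and 305 to 1019 in DMSO, the 10 T and B cell markers to 2 to 22, the 6 dendritic cell markers to 89 to 154 and the 10 stromal and erythroid markers to 28 to 184. The defining genes Cd79a, Pax5 and Hbb-bs were at 0 in all 12 libraries. Mitochondrial content varied between the libraries. Genes of the mitochondrial chromosome held 2.39%, 4.01% and 1.18% of the counts in MK-2206 replicates 1 to 3 and 3.57%, 1.36% and 1.02% in the GSK-2110183 replicates, against 0.759% to 1.94% in DMSO. MK-2206 replicate 1 thus also lay above the DMSO range. Over all 180 libraries this share ran from 0.525% to 4.47% (median 1.34%), and 9 libraries were above MK-2206 replicate 2. The exact permutation test (two-sided) gave p = 0.0357 for MK-2206, 0.143 for GSK-2110183 and 0.0779 for both, and 0.214, 0.25 and 0.234 after adjustment over 6 such tests. MK-2206 replicate 2 and GSK-2110183 replicate 1 had the highest shares of the 12 libraries. The counts of called genes and the fold changes of the leading genes are therefore also given without them. In bulk samples of this kind, fewer cells expressing a gene and less RNA per cell cannot be told apart.

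MK-2206 was first compared with DMSO. Of 12714 genes tested, 231 (1.82%) passed an adjusted p of 0.05 (limma with Benjamini-Hochberg adjustment) and are termed called, 125 of them higher (0.983%) and 106 lower (0.834%) with MK-2206. After rescaling the libraries by the median of ratios, which moved the median of all genes from 0.11 to 0.01 on the log2 scale, 347 passed, 65 higher and 282 lower, so the balance of rises and falls depended on the scaling. The genes that rose most with no overlap between the groups were the immediate-early transcription factor Fosb, the decoy interleukin-1 receptor Il1r2, the macrophage elastase Mmp12, the pseudogene Gm5853 and the uncharacterised loci Gm12589 and Gm35001. Those that fell most were the opioid growth factor receptor Ogfr, the RNA helicase Dhx16, the endoplasmic reticulum receptor for autophagy Retreg3, the tight junction protein Tjp3, the transcription factor Grhl1 and the uncharacterised Gm31566.

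Mmp12 (chr9:7344397-7360461 in mm10) had 1253, 2008 and 731 normalised read counts in the MK-2206 samples and 318 to 594 (median 414.5) in DMSO. Every MK-2206 sample was above every DMSO sample, a log2 fold change of 1.55 ± 0.313 (SE, adjusted p = 0.00253, limma). Fosb had 53, 138 and 96 in the MK-2206 samples against 17 to 40 (median 22.5) in DMSO, a log2 fold change of 1.84 ± 0.439 (adjusted p = 0.0232, limma). Neither gene overlapped between the groups, although the MK-2206 samples themselves were widely spread.

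Il1r2, whose gene overlaps Gm16894, had 46, 57 and 30 counts with MK-2206 against 3 to 24 in DMSO (log2 fold change 1.38, adjusted p = 0.0435, limma). Gm12589 had 25, 26 and 12 against 1 to 8 (2.13, adjusted p = 0.00567), Gm35001 had 31, 47 and 19 against 3 to 11 (2.05, adjusted p = 0.0476) and Gm5853 had 19, 28 and 22 against 4 to 13 (1.50, adjusted p = 0.0435). These 4 genes were low in all 12 libraries. Pseudogenes made up 45 of the 125 genes called higher with MK-2206 (36%), against 1449 of the 12714 genes tested (11.4%) and 1 of the 106 called lower. A pseudogene can share reads with its parent gene, so the source of such counts is uncertain.

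Ogfr (chr2:180589407-180595837) gave closely similar values in the MK-2206 samples. Its normalised read counts were 175, 201 and 184 with MK-2206 and 474 to 1182 (median 923) in DMSO, and the log2 fold change was -2.13 ± 0.379 (adjusted p = 0.000454, limma). The GSK-2110183 samples had 393, 836 and 775 counts, of which the last 2 lay within the DMSO range, and their log2 fold change was -0.37 with a 95% confidence interval of -1.12 to 0.38. Across the other 56 inhibitors the level of Ogfr ran from 132 to 1159 (median 502), so that the low level under MK-2206 lay inside that range.

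Dhx16 had 63, 108 and 82 counts with MK-2206 against 156 to 438 in DMSO (log2 fold change -1.59, adjusted p = 0.0277, limma), and Retreg3 had 40, 83 and 61 against 107 to 244 (-1.44, adjusted p = 0.0172). In the GSK-2110183 samples these genes had 97, 292 and 261 counts and 95, 189 and 154 counts, in each case 1 sample below the DMSO range and 2 within it. Tjp3 (7, 24 and 18 against 28 to 59), Grhl1 (1, 5 and 4 against 7 to 18) and Gm31566 (10, 4 and 10 against 11 to 47) fell from low levels, with log2 fold changes of -1.44, -1.56 and -1.59 (adjusted p = 0.0476, 0.0232 and 0.00969, limma).

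The number of genes called for MK-2206 depended on single libraries. It was 15 without MK-2206 replicate 2, the library with the highest mitochondrial share among the 12, 10 without MK-2206 replicate 1, 19 without replicate 2 of DMSO set 2, and 1496 without replicate 1 of DMSO set 2. Over all 20 alternative settings, 2 of the 231 genes were called each time, Ogfr and Tspyl1, a gene of the nucleosome assembly protein family named here after its values were seen, and 23 were called in at least 15 of them.

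Without MK-2206 replicate 2, the log2 fold change with MK-2206 was -2.19 for Ogfr (adjusted p = 0.00677, limma), -1.68 for Retreg3 (adjusted p = 0.0269) and -1.87 for Grhl1 (adjusted p = 0.0269), which still passed. It was 1.20 for Mmp12 (adjusted p = 0.178), 1.53 for Fosb (adjusted p = 0.269), 1.18 for Il1r2, 1.95 for Gm12589, 1.74 for Gm35001 and 1.35 for Gm5853, and none of the genes named as higher passed then. Of the other genes named as lower, Dhx16 (-1.78, adjusted p = 0.0583), Tjp3 (-1.78) and Gm31566 (-1.21) did not pass.

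**Figure D1:**
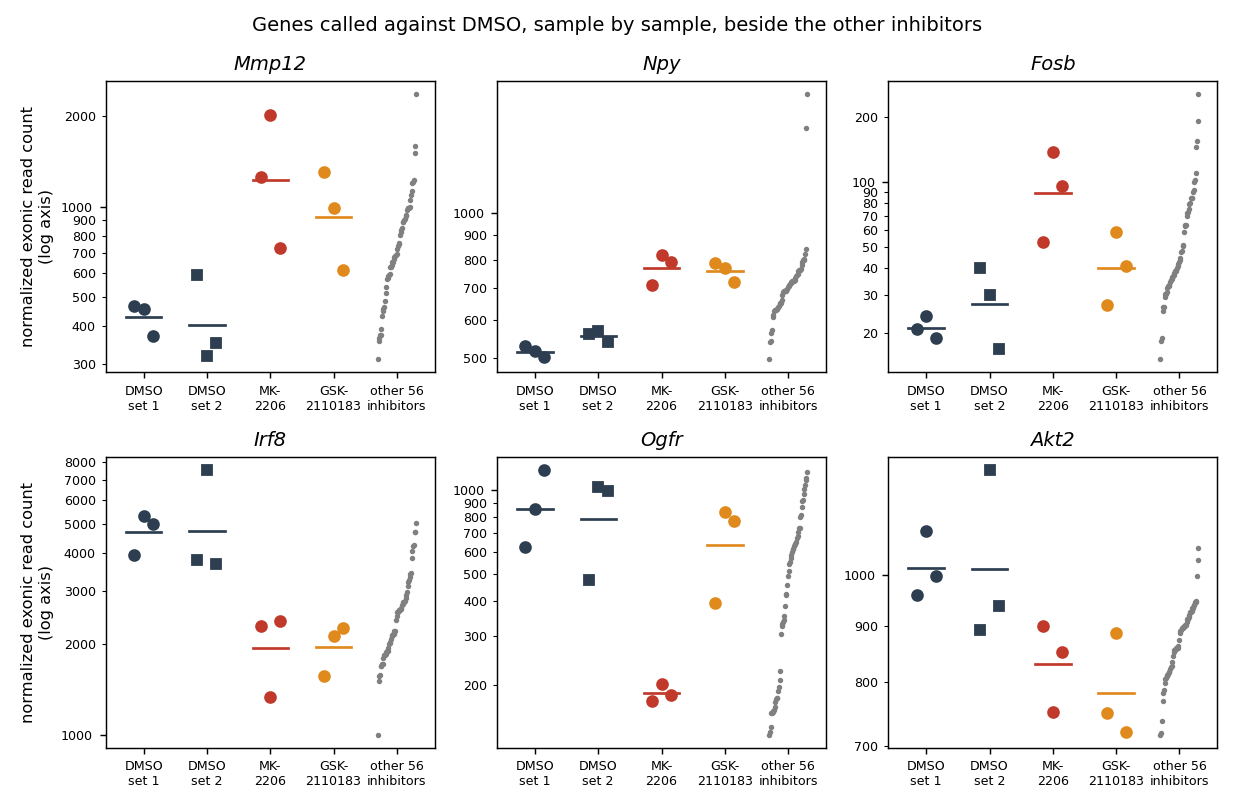
Normalised read counts (log axis) of 6 named genes in the 3 MK-2206, 3 GSK-2110183 and 6 DMSO samples (sets 1 and 2 apart), with a line at each geometric mean and the levels of the other 56 inhibitors as small points beside them. Ogfr is low in the 3 MK-2206 samples (175 to 201 counts), and Mmp12 and Npy lie above and Irf8 below every DMSO sample with both AKT inhibitors.

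With GSK-2110183 alone, no gene passed the test against DMSO (0 of 12714, 0%; limma), whereas 1392 genes (10.9%) had an unadjusted p under 0.05, and for MK-2206 that number was 3341 (26.3%). The lowest adjusted p was 0.194, shared by Akt2, Npy, Irf8, Frat1 and Plau among others. The 95% confidence interval of a log2 fold change had a median half-width of 0.43 for each drug alone, which is the size that a typical gene needs for an unadjusted p of 0.05. The adjusted threshold asks for more: Npy, at 0.50 ± 0.114 (SE), still had an adjusted p of 0.194 with GSK-2110183. The genes with the lowest p therefore stand as values that did not pass.

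Akt2, one of the genes encoding the drugs' own target, had 750, 886 and 721 normalised read counts with GSK-2110183, 899, 751 and 852 with MK-2206, and 892 to 1247 (median 979) in DMSO. All GSK-2110183 samples were below the DMSO range, with a log2 fold change of -0.38 (95% confidence interval -0.56 to -0.19, adjusted p = 0.194, limma). The pseudogene Akt2-ps had 260, 265 and 219 counts with GSK-2110183 and 293 to 391 in DMSO, and since its sequence derives from Akt2, reads of the pair cannot be assigned with certainty. Akt1 had 241, 268 and 274 counts with GSK-2110183, 335, 334 and 226 with MK-2206 and 216 to 278 in DMSO, and did not pass.

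Frat1, which encodes a GSK3-binding protein, had 11, 16 and 11 counts with GSK-2110183 and 0 to 9 in DMSO (log2 fold change 2.27, adjusted p = 0.194, limma), and the urokinase gene Plau had 266, 256 and 242 against 86 to 152 (1.24, adjusted p = 0.194). The circadian repressor Nr1d1, which overlaps Thra, had 60, 48 and 40 against 6 to 32, 9530027J09Rik had 27, 30 and 20 against 7 to 16, and Gm6287 had 28, 26 and 23 against 8 to 14. On the other side, the mitochondrial aldehyde dehydrogenase Aldh1b1 had 130, 152 and 127 against 176 to 259, Snn had 50, 73 and 72 against 92 to 235, and the ubiquitin-conjugating enzyme Ube2r2 had 261, 259 and 228 against 296 to 359. None of these genes overlapped between the GSK-2110183 and the DMSO samples. Among all genes tested, 401 (3.15%) lay wholly above and 199 (1.57%) wholly below DMSO in the GSK-2110183 samples, and 798 (6.28%) and 324 (2.55%) in the MK-2206 samples.

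The mean of both AKT inhibitors was then compared with DMSO, which sets 6 samples against 6. The fit treats these as independent samples. Same-numbered samples of the 2 DMSO sets deviated together from their means, with correlations of 0.55, 0.35 and 0.54 for numbers 1 to 3. Between MK-2206 and GSK-2110183 these correlations were 0.44, -0.25 and 0.56. In this comparison 569 genes (4.48%) passed, 368 higher (2.89%) and 201 lower (1.58%) with the drugs (limma, adjusted p under 0.05). With median-of-ratios scaling 617 passed, 184 higher and 433 lower. Of the 368 genes called higher, 88 did not overlap between the 6 inhibitor and the 6 DMSO samples, and of the 201 called lower 49 did not, and among all genes tested 180 (1.42%) lay wholly above and 72 (0.566%) wholly below DMSO. The calls did not outlast the loss of the libraries of high mitochondrial share: without MK-2206 replicate 2 and GSK-2110183 replicate 1, 0 genes passed in limma and 1216 had an unadjusted p under 0.05. Without replicate 2 of DMSO set 2 the number called was 11, and without replicate 1 of that set it was 2029. The values below are those of all 12 libraries, and those of the leading genes without the same 2 libraries follow them.

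The neuropeptide gene Npy (chr6:49822710-49829507) had 708, 818 and 789 normalised read counts with MK-2206, 786, 769 and 720 with GSK-2110183 and 502 to 569 (median 535) in DMSO. The inhibitor samples were tight and all above DMSO, with a log2 fold change of 0.51 ± 0.0934 (SE, adjusted p = 0.000998, limma). Mmp12 had 1302, 987 and 616 counts in the GSK-2110183 samples, again all above DMSO, and rose by 1.35 over both drugs (adjusted p = 0.00135). Plau, Il1r2, the tetraspanin gene Tspan33 and the loci Gm3756 and Gm39667 followed, with log2 fold changes of 1.04, 1.26, 1.34, 1.08 and 1.34 (adjusted p = 0.0159 to 0.0374, limma).

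Irf8 (chr8:120736358-120756694), which encodes a transcription factor needed for macrophage and dendritic cell identity, fell. It had 2303, 1332 and 2391 counts with MK-2206, 1565, 2121 and 2269 with GSK-2110183 and 3680 to 7541 (median 4478) in DMSO. All inhibitor samples were below all DMSO samples, and the log2 fold change was -1.28 with MK-2206 (adjusted p = 0.0232, limma), -1.27 with GSK-2110183 (adjusted p = 0.194) and -1.27 ± 0.25 for both (adjusted p = 0.00241). The metalloreductase Steap4 had 28 to 91 counts with the drugs against 124 to 215 in DMSO (log2 fold change -1.48, adjusted p = 0.0381, limma).

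The ubiquitin ligase gene Rnf139, which overlaps Tatdn1, fell by 0.81 on the log2 scale (450 to 748 counts with the drugs against 795 to 1568), Ubtd2 fell by 0.83 (27 to 45 against 53 to 76), the homeobox gene Meis3 fell by 0.74 (21 to 42 against 43 to 78) and the lipid transfer protein gene Stard7 fell by 0.72 (569 to 987 against 989 to 1742), with adjusted p from 0.0197 to 0.0361 (limma). Akt2 itself passed over both drugs, at -0.33 ± 0.075 (adjusted p = 0.0146). Its level was also below that of DMSO with 54 of the other 56 inhibitors, whose median level was 879. The AKT inhibitors differed from the mean of those 56 by -0.11 on the log2 scale (adjusted p = 0.916, limma).

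Without MK-2206 replicate 2 and GSK-2110183 replicate 1 these genes kept their directions, and none passed. The log2 fold change was then 0.48 for Npy (adjusted p = 0.0811, limma), 1.05 for Mmp12 (adjusted p = 0.23), 0.91 for Plau, 1.09 for Il1r2, -1.05 for Irf8 (adjusted p = 0.215), -1.31 for Steap4, -0.83 for Ubtd2 and -0.28 for Akt2. Ccl7 and Ifnb1, genes of the inflammatory and interferon lists described next, had their highest counts of the 12 libraries in these libraries. Their fold changes went from 0.79 to 0.52 for Ccl7 and from 1.02 to 0.69 for Ifnb1 without these libraries.

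Gene groups were read against the background rates of all genes tested, 4.48% called over both drugs and 1.82% with MK-2206 alone. Of 38 AKT pathway components tested, 1 passed over both drugs (Akt2, lower). With MK-2206 alone 1 passed, Inppl1, which encodes the PIP3 phosphatase SHIP2 and had 147, 184 and 141 counts against 237 to 617 in DMSO and 238, 398 and 411 with GSK-2110183. Of 28 FOXO-linked genes, 2 passed over both drugs: the transcriptional repressor Bcl6 rose (log2 fold change 0.88, adjusted p = 0.0358, limma; 198 to 406 counts against 107 to 319) and the mitochondrial superoxide dismutase Sod2 fell (-0.36, adjusted p = 0.0284). The insulin receptor substrate Irs2, a FOXO target, had 50, 84 and 41 counts with MK-2206, 86, 96 and 61 with GSK-2110183 and 19 to 52 in DMSO, and its log2 fold change of 0.88 did not pass (95% confidence interval 0.26 to 1.51, adjusted p = 0.0676). The FOXO genes themselves did not pass either, with Foxo3 at 36 to 64 counts under the drugs and 17 to 68 in DMSO and Foxo1 at 5 to 22 and 5 to 19. The median log2 fold change over the 28 FOXO-linked genes was 0.26 with MK-2206 and 0.16 with GSK-2110183, beside 0.11 and 0.08 over all genes tested. For the other 56 inhibitors this list value had a median of 0.13, and MK-2206 ranked 12th and GSK-2110183 27th from the top of all 58.

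Of 29 sterol and fatty acid synthesis genes, 1 passed, the lanosterol demethylase Cyp51 (-0.39, adjusted p = 0.0248, limma; 803 to 1062 counts against 999 to 1280). None of the 27 genes of the ATF4 amino acid response and tRNA synthetases passed. Hif1a, the hypoxia factor, was the single call among 23 glycolysis and hypoxia genes, with 731, 830 and 999 counts under MK-2206, 1133, 1424 and 1440 under GSK-2110183 and 1196 to 2501 in DMSO (log2 fold change over both -0.56, adjusted p = 0.0422). Of 35 lysosome and autophagy genes, the autophagy receptor Sqstm1 and the lysosomal transcription factor Tfe3 fell (-0.36 and -0.29). With MK-2206 alone, Tfe3 and the lysosomal channel gene Mcoln1 passed, both lower.

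Of 38 genes of the inflammatory LPS response, 7 passed over both drugs, beside 4.48% of all genes tested. The median log2 fold change of this list was -0.05 with MK-2206 and -0.07 with GSK-2110183, ranked 29th and 33rd from the top of all 58. For the other 56 inhibitors the list value had a median of -0.04. The chemokine gene Ccl7 rose (5739 to 12594 counts against 3777 to 7874, log2 fold change 0.79). Tissue factor F3, the adhesion molecule Icam1, the NF-kB family members Nfkb2 and Relb, the NF-kB inhibitor Nfkbie and the cytokine signalling inhibitor Socs3 fell, with log2 fold changes from -0.88 for F3 to -0.26 for Nfkbie. The main LPS-induced cytokines did not pass: Tnf had 7362 to 12222 counts with MK-2206, 5879 to 8322 with GSK-2110183 and 6668 to 8932 in DMSO, Il6 had 520 to 760, 325 to 568 and 337 to 757, and Il1b had 3119 to 6237, 3130 to 9664 and 2842 to 6751. Il10 had 1084 to 2172, 856 to 2597 and 639 to 2089 counts in the same groups. Of 41 interferon response genes, the cytokine Ifnb1 rose (123 to 378 against 75 to 262, 1.02, adjusted p = 0.049, limma) and the nucleotide kinase Cmpk2 fell (-1.04, adjusted p = 0.0412), and the target Cxcl10 had 55016 to 107573 against 56043 to 112277 and did not pass. Fosb was the 1 call among 27 immediate-early genes, and the thymidylate synthase Tyms (427 to 546 against 282 to 413, 0.38) the 1 among 31 cell cycle genes.

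Calls among ribosomal protein genes all went one way. Of the 80 tested, 15 were called higher and none lower over both drugs, beside 2.89% of all genes called higher, and 9 were called higher with MK-2206. Their median log2 fold change was 0.39 over both drugs, 0.47 with MK-2206 and 0.28 with GSK-2110183. For the other 56 inhibitors this value ran from -0.08 to 0.57, with a median of 0.30. MK-2206 ranked 9th and GSK-2110183 34th from the top of all 58. Rpl28 had 2898, 2998 and 2864 counts with MK-2206, 2678, 2612 and 2661 with GSK-2110183 and 2180 to 2340 in DMSO (0.29, adjusted p = 0.0248, limma). After median-of-ratios scaling 3 of the 15 still passed, and without the 2 libraries of high mitochondrial share none did. The 17 tested genes of the mitochondrial chromosome had a median log2 fold change of 1.20, and none passed. It was 1.48 with MK-2206 and 0.96 with GSK-2110183. For the other 56 inhibitors it ran from -0.55 to 2.15, with a median of 0.59. Without those 2 libraries 0 of all genes tested passed over both drugs, so no list could hold a call, and this tells nothing about any single list. The part of mitochondrial content in these differences was not tested.

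**Figure D2:**
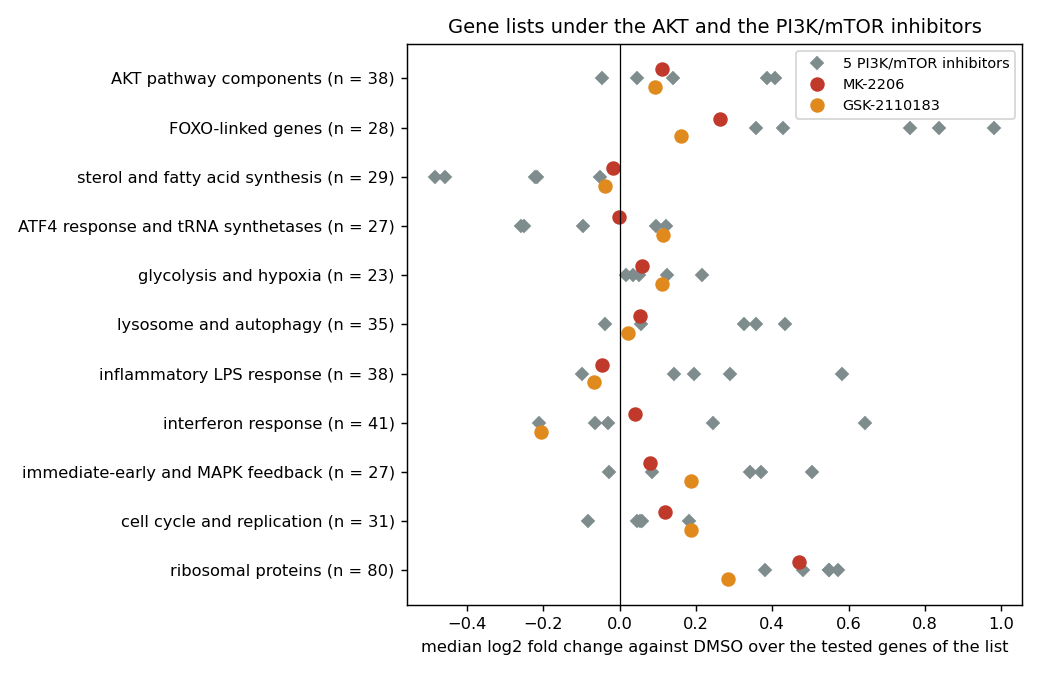
Median log2 fold change against DMSO over the tested genes of each list, for MK-2206, GSK-2110183 and each of 5 PI3K/mTOR inhibitors. For the 28 FOXO-linked genes, MK-2206 (0.26) and GSK-2110183 (0.16) lie to the left of all 5 PI3K/mTOR inhibitors, and for the ribosomal protein genes every inhibitor lies above 0.

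A second reference was the other 56 inhibitors, which share no sample with the AKT inhibitors. No gene passed (0 of 12714, 0%; limma), 690 (5.43%) had an unadjusted p under 0.05, and the lowest adjusted p was 0.866. The intervals were narrow, with a median half-width of 0.25 on the log2 scale, and 2 genes differed by more than 1. The 368 genes called higher against DMSO had a median log2 fold change of 0.67 against DMSO and 0.23 against the other 56 inhibitors, while the other 56 inhibitors had 0.39 against DMSO. For the 201 genes called lower these medians were -0.54, -0.17 and -0.32. For 343 of the 368 (93.2%), DMSO lay below 50 or more of the 56, beside 2516 (19.8%) of all genes tested. For 165 of the 201 (82.1%) it lay above 50 or more, beside 945 (7.43%). Among the list genes, DMSO lay below 54 of the 56 for Bcl6 and 52 for Ccl7, and above 55 for Cyp51 and 50 for Cmpk2. All these comparisons share the AKT inhibitor or the DMSO samples, and the genes were chosen by the first of them.

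Named genes were read against the same reference. For Npy, the AKT inhibitors differed from the mean of the other 56 by 0.11 on the log2 scale (95% confidence interval -0.03 to 0.24, adjusted p = 0.945, limma), and the group levels of those inhibitors ran from 499 to 1757 with a median of 702. For Irf8 the difference was -0.33 (-0.68 to 0.03, adjusted p = 0.945) with levels from 1004 to 5023 and a median of 2516, so the DMSO median of 4478 lay near the top of that range. For Mmp12 it was 0.56 (0.19 to 0.92, adjusted p = 0.866) with levels from 312 to 2362 and a median of 709. In the number of genes called against DMSO, MK-2206 ranked 17th of the 58 inhibitors and GSK-2110183 was tied at 42nd with all inhibitors that had 0 genes called.

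The third reference was the PI3K/mTOR inhibitors, which act on the same pathway. BGT226, Omipalisib, Apitolisib and PF04691502 inhibit PI3K and mTOR and AZD2014 inhibits mTOR, and each had 3 samples at its own concentration. Per the paper, each concentration was set by binding of the CKI to an intended target, which was JAK1 for Apitolisib. How far AKT, PI3K or mTOR was inhibited in these samples was not measured. Between both AKT inhibitors and the mean of these 5, 1521 genes (12%) differed, 564 higher (4.44%) and 957 lower (7.53%) with the AKT inhibitors (limma, adjusted p under 0.05). The mean of the 5 differed from DMSO in 4680 genes (36.8%). The reference itself was uneven: BGT226 and Omipalisib had the most genes called against DMSO of all 58 inhibitors, 3863 and 3264, whereas AZD2014, Apitolisib and PF04691502 had 2490, 2021 and 1663. With the mean of the last 3 as the reference, chosen after the data were seen, 479 genes differed, 281 higher and 198 lower. Leaving out MK-2206 replicate 2 and GSK-2110183 replicate 1 kept the call of the 11 sterol genes and of 11 of the 12 FOXO-linked genes described next.

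Sterol synthesis genes were higher with the AKT inhibitors than with the mean of the PI3K/mTOR inhibitors, while Apitolisib, 1 of the 5, had values close to those of the AKT inhibitors. Of 29 sterol and fatty acid synthesis genes, 11 were called higher and none lower, beside 4.44% and 7.53% of all genes tested. Against the last 3 inhibitors alone 7 of these 11 were still called higher. The list was chosen with earlier results of these data known. The mean of the 5 was itself called lower than DMSO for 14 of the 29. Msmo1, a sterol demethylase gene, had 1232, 1261 and 1051 normalised read counts with MK-2206, 1232, 1160 and 1068 with GSK-2110183 and 944 to 1429 (median 1344.5) in DMSO. Its levels, as geometric means of 3 samples, were 508 with BGT226, 280 with Omipalisib, 1141 with Apitolisib, 577 with PF04691502 and 830 with AZD2014. All AKT inhibitor samples lay within the DMSO range and above the levels of BGT226, Omipalisib, PF04691502 and AZD2014, with a log2 difference of 0.96 ± 0.0755 from the mean of the 5 (adjusted p = 7.19e-21, limma). Against DMSO the log2 fold change of Msmo1 was -0.13 (95% confidence interval -0.31 to 0.05, adjusted p = 0.341).

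Hmgcs1, the HMG-CoA synthase of the mevalonate pathway, had 1844, 1571 and 1726 counts with MK-2206, 1678, 1955 and 1688 with GSK-2110183 and 1604 to 2310 in DMSO, and its group levels (geometric means of 3 samples) with the PI3K/mTOR inhibitors were 841, 489, 1698, 1013 and 1180 in the same order. The difference from their mean was 0.85 ± 0.0876 (adjusted p = 2.65e-14, limma). The sterol enzymes Hsd17b7 (0.96), Cyp51 (0.83) and Sc5d (0.61) were also higher against both forms of the reference. The isomerase Idi1 (0.79), the desaturase Scd2 (0.88), the squalene epoxidase Sqle (0.46) and the sterol transfer protein Stard4 (0.44) were higher against the mean of the 5 and did not pass against the last 3. Apitolisib is in both forms of the reference, and its log2 fold changes against DMSO were -0.20 for Hmgcs1, -0.16 for Msmo1, -0.47 for Cyp51, -0.46 for Sqle and 0.06 for Idi1, where MK-2206 had -0.19, -0.11, -0.45, -0.47 and -0.07. The differences for these genes thus came from the other inhibitors of each reference, and the difference from Apitolisib alone was not tested. Hmgcs1 was the 1 gene of 21 in this list with a promoter sequence whose 250 bases before the start held TCACCCCAC, letters resembling a sterol regulatory element. The letters were searched on both strands and found in 0.602% of tested genes with a promoter. The stretch is shown because Hmgcs1 held the letters and differed against both forms of the reference, with the letters in capitals, from RefSeq on GRCm38.p6, plus strand, chr13:119690159-119690278.
Hmgcs1: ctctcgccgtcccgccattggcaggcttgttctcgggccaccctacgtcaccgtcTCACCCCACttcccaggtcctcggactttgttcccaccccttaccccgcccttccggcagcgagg

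FOXO-linked genes went the other way. Of 28, 12 were lower with the AKT inhibitors than with the PI3K/mTOR inhibitors, beside 7.53% of all genes tested. Another 2 were higher, the receptor gene Erbb3 (0.61) and the sestrin gene Sesn1 (0.57), beside 4.44%. This list too was chosen with earlier results of these data known. The mean of the 5 PI3K/mTOR inhibitors was itself called higher than DMSO for 18 of the 28. Against the last 3 inhibitors alone, 8 of the 12 were still called lower, and Erbb3 was still called higher. Txnip, which encodes an inhibitor of glucose uptake, had 842, 858 and 558 counts with MK-2206, 736, 692 and 556 with GSK-2110183 and 352 to 749 (median 545.5) in DMSO. Its levels with BGT226, Omipalisib, Apitolisib, PF04691502 and AZD2014 were 1776, 1377, 959, 1784 and 1374. Every AKT inhibitor sample was below the level of each of the 5, and the log2 difference was -1.03 ± 0.149 (adjusted p = 3.28e-08, limma), or -0.93 against the last 3.

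The transcriptional repressor Hbp1 had 842, 993 and 437 counts with MK-2206, 945, 604 and 426 with GSK-2110183 and 252 to 767 in DMSO, against levels of 1165 to 2582 with the 5 inhibitors (-1.58, adjusted p = 7.71e-09, limma). The growth arrest gene Gadd45a had 25 to 32 counts with the AKT inhibitors and 24 to 36 in DMSO, against 38.2 to 159 (-1.53, adjusted p = 8.05e-12). The cyclin gene Ccng2 (-1.12), the autophagy gene Gabarapl1 (-0.93), the pro-apoptotic gene Bcl2l11 (-0.47), the cell cycle inhibitor Cdkn1b (-0.49) and the coactivator Cited2 (-0.44) were lower against both forms of the reference. For several of these, Apitolisib lay close to an AKT inhibitor or between them. Its log2 fold change against DMSO was -0.16 for Ccng2, -0.05 for Bcl2l11, 0.33 for Cdkn1b and 0.51 for Cited2. For the same genes MK-2206 had -0.18, -0.15, 0.58 and 0.44 and GSK-2110183 had -0.41, -0.06, 0.11 and 0.11. For Txnip, Hbp1 and Gadd45a, Apitolisib was at 0.86, 1.36 and 0.38, further above both AKT inhibitors. The PI3K-binding inhibitor Pik3ip1 (-1.01), Irs2 (-0.92), the pro-apoptotic gene Bbc3 (-0.59) and the receptor Igf1r (-0.37) were lower against the mean of the 5 and did not pass against the last 3.

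The letters GTAAACA, the core of a FOXO motif, were searched on both strands in the 250 bases before each gene's start. They stood before 4 of 24 FOXO-linked genes with a promoter sequence (16.7%), Bbc3, Bcl2l11, Hbp1 and Txnip. Among all tested genes with a promoter sequence, 252 of 9131 (2.76%) held them. The list was drawn up from genes linked to FOXO, so this difference in share describes the list and not the drugs. All 4 were called lower with the AKT inhibitors than with the PI3K/mTOR inhibitors, where 13 of the 24 were called, higher or lower. A match of letters is a description of the sequence and not a measured binding site. The matches of Txnip (chr3:96557780-96557899) and Bcl2l11 (chr2:128125788-128125907), both on the plus strand of GRCm38.p6 from RefSeq, are shown as examples of genes that differed against both forms of the reference. Hbp1 also did, and its window, which overlaps an annotated transcript, is not shown. Capitals mark the 7 letters, which begin 121 bases before the start of Txnip and 227 before that of Bcl2l11.
Txnip: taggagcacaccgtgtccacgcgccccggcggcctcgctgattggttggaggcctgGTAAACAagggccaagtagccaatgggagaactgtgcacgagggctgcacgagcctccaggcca
Bcl2l11: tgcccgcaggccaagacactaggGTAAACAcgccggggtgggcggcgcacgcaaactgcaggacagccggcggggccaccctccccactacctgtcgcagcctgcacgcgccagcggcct

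**Figure D3:**
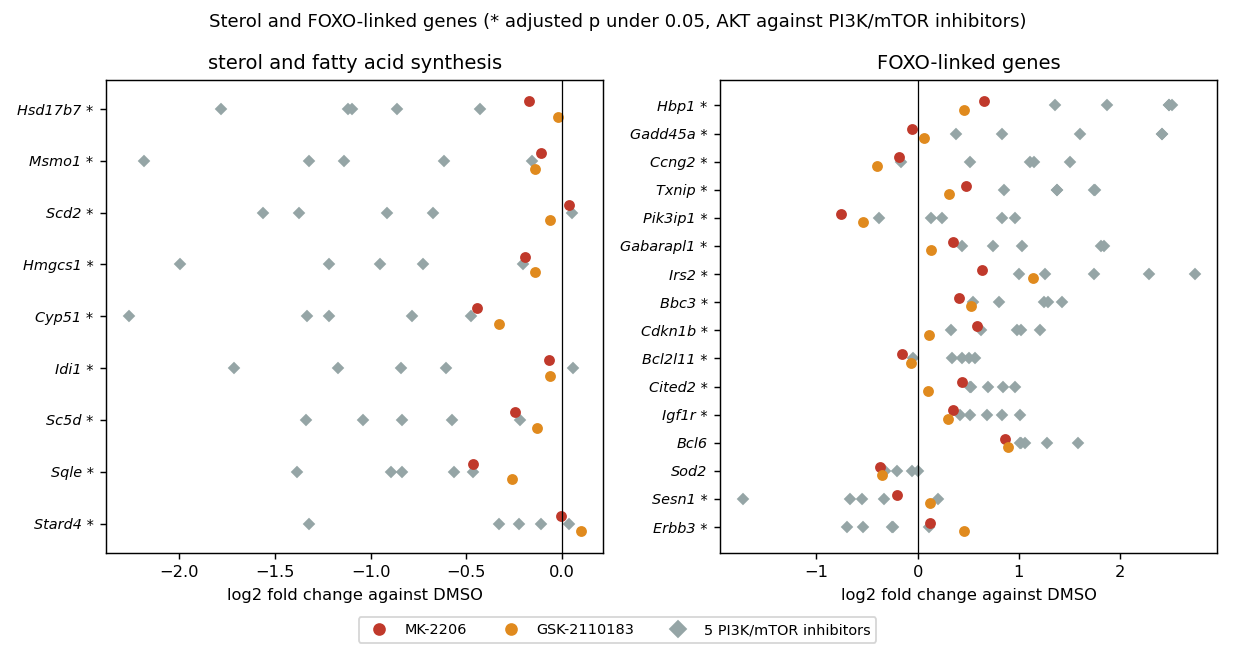
Log2 fold change against DMSO of the sterol synthesis and FOXO-linked genes named in the text, for MK-2206, GSK-2110183 and each of the 5 PI3K/mTOR inhibitors, with asterisks at the genes called between the AKT and the PI3K/mTOR inhibitors. Msmo1 and Hmgcs1 stay near 0 with the AKT inhibitors (-0.13 and -0.17 over both) and Txnip is at 0.40 over both.

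Several genes called against DMSO also differed from the PI3K/mTOR inhibitors, in the opposite direction. Npy was higher than in DMSO and lower than with the PI3K/mTOR inhibitors (-0.40, adjusted p = 5.3e-05, limma), and so were Plau (-1.15, adjusted p = 5.19e-06), Frat1 (-1.44, adjusted p = 0.00332), Nr1d1 (-1.33, adjusted p = 0.000187) and Fosb (-0.86, adjusted p = 0.0436). For Npy and Plau the difference rested on BGT226 and Omipalisib, whose Npy levels were 1496 and 1757 beside 719, 803 and 688 with the other 3, and it turned to 0.056 and 0.12 against the last 3. Against those 3, Frat1 (-1.29) and Nr1d1 (-1.01) still passed and Fosb (-0.42) did not.

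**Figure D4:**
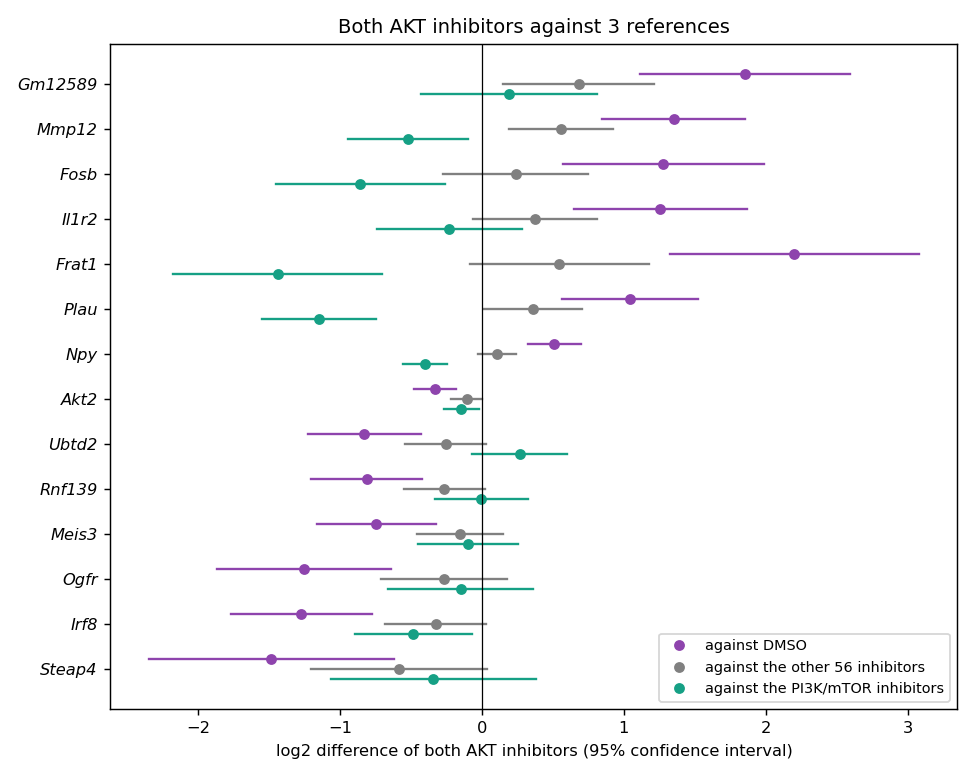
Log2 difference of both AKT inhibitors, with 95% confidence intervals, from DMSO, from the other 56 inhibitors and from the 5 PI3K/mTOR inhibitors, for 14 genes named in the text. Npy differs by 0.51 from DMSO, by 0.11 from the other 56 inhibitors and by -0.40 from the PI3K/mTOR inhibitors.

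Beyond these lists, the genes lower by the most with the AKT inhibitors were Rgs1, Cxcr4, Ypel2, Klhl24, Zbtb10 and Slc26a11. Rgs1, a regulator of G protein signalling, had 194 to 607 counts with the AKT inhibitors and 147 to 561 in DMSO, against 13320 with BGT226, 6933 with Omipalisib, 384 with Apitolisib, 1067 with PF04691502 and 733 with AZD2014. Its log2 difference of -2.46 (adjusted p = 3.03e-11, limma) therefore rested on the first 2, and it did not pass against the last 3. Klhl24, a ubiquitin ligase adaptor, had 216 to 330 counts with the AKT inhibitors and 129 to 311 in DMSO, and levels of 1501, 1421, 340, 1131 and 1012 with the 5 inhibitors. It differed by -1.86 (adjusted p = 9.59e-18, limma) and by -1.46 against the last 3. Ypel2 (-1.91) and the anion transporter Slc26a11 (-1.74) passed against both forms, while the chemokine receptor Cxcr4 (-1.95) and Zbtb10 (-1.75) did not pass against the last 3.

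The genes higher by the most were Mpo (1.48), Ankrd9 (1.44), Elane (1.41), Gm17087 (1.39), Acta1 (1.38) and Gm16103 (1.37), all with low counts. Mpo and Elane, with Prtn3 (1.26), encode granule proteins of neutrophil progenitors. Mpo had 16, 22 and 16 counts with MK-2206, 16, 48 and 13 with GSK-2110183 and 6 to 21 in DMSO, against levels of 2.30 and 2.17 with BGT226 and Omipalisib and 4.77 to 22.9 with the other 3. Ankrd9 and Gm16103 passed against both forms of the reference, and the other 4 of the 6 did not pass against the last 3. The share of progenitor cells in each culture was not measured, and its part in these values was not tested.

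Among 35 lysosome and autophagy genes, 7 were lower than with the PI3K/mTOR inhibitors and none higher. Of all genes tested, 7.53% were called lower and 4.44% higher in this comparison, and these shares stand beside every list of this paragraph. The autophagy kinase gene Ulk1 (-1.12) and Gabarapl1 passed against both forms of the reference, whereas the other 5, among them Flcn (-0.69) and Map1lc3b (-0.25), did not pass against the last 3. Of 38 inflammatory genes 12 were lower and none higher. Icam1 had 20266, 16142 and 22313 counts with MK-2206 and 17952 to 19620 with GSK-2110183, against 20991 to 37734 with the 5 inhibitors and 21914 to 25826 in DMSO (-0.67, adjusted p = 2.36e-12, limma), and the chemokine genes Cxcl1 (-0.86) and Cxcl2 (-0.79) were lower as well. Icam1 and Cxcl1 also passed against the last 3, and Cxcl2 (-0.31) did not. Of 27 genes of the ATF4 response, 3 were higher and 3 lower. Atf4 itself had 1580 to 1905 counts with the AKT inhibitors and 1293 to 1753 in DMSO, and levels of 10080, 6054, 1717, 1601 and 1111 with the 5 inhibitors, so that the log2 difference of -0.77 turned to 0.20 against the last 3. Of 38 AKT pathway components, 6 were lower, Mlst8, Phlpp1, Pik3ca, Pik3r5, Rptor and Tsc1, and none of these passed against the last 3.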

How the data were processed

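RNA was measured by SMART-seq2, in which polyA RNA is copied with oligo(dT) primers, amplified and cut with Tn5. Per the methods and the submitters' processing notes, reads were aligned to mm10 with TopHat2 2.1.1, blacklisted regions were removed with bedtools 2.29.2, and exonic reads were counted per RefSeq gene in R 3.6.2, where DESeq2 was also named. The strand setting is not given in the sources used here, so overlapping and antisense genes cannot be told apart. The deposited values are a score: whole-number normalised read counts that the authors scaled on genes invariant across samples and rounded, and not raw counts. Because they are not raw counts, no count model was used.

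All 180 samples (59 groups by label) were fitted together with limma 3.58.1 in R 4.3.3 on log2(value + 1), for the 12714 of 45070 genes with a mean of at least 10. A fold change on this scale understates the change of low genes. Genes were called at a Benjamini-Hochberg adjusted p of 0.05. Library shares were compared by exact permutation tests, and replicates are separate samples by their labels. These tests and the main fit treat the samples as independent. Confidence intervals come from this fit and cover the spread between samples, pooled over the 59 groups. Depth was estimated from the spacing of low values.

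The named genes were the 6 with the largest rise and the 6 with the largest fall among called genes that did not overlap with DMSO (for GSK-2110183, those with the lowest p), the 6 and 6 with the largest differences from the PI3K/mTOR inhibitors, list genes called in a comparison, and a fixed set of AKT, FOXO, cytokine and immediate-early genes, of which Klf2 was below the expression filter. Mitochondrial genes were taken by chromosome (37 genes, 17 tested), since the symbol prefix matched rRNAs only. Some genes of the rule are not reported here. The members and lists were chosen with earlier results of these data known. Same-numbered GSK-2110183 and DMSO samples deviated together (each correlation over 0.1), and the replicate block left 0 genes called there.

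The alternatives were other pseudocounts (0.5 and 10), filters (none, or a mean of at least 50), median-of-ratios scaling, no variance trend, a replicate block, the 12 samples alone, each DMSO set alone and each library left out. Leaving out the libraries of high mitochondrial share together, and BGT226 with Omipalisib, was chosen after seeing the data. Python 3.11.15, pandas 2.3.3, SciPy 1.17.1 and matplotlib 3.10.9 were used.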

Additional observations from a re-analysis of the deposited data

Results flagged for a closer look

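Of 116 measures checked in the 6 DMSO samples (named genes, the library total and the mitochondrial share), 12, all of them genes, had a DMSO sample set apart from the other 5 by more than Dixon's critical value of 0.625 of the group's range, where chance alone sets apart about 5% of groups. Replicate 2 of DMSO set 2 was the one set apart in 5 genes: it was lowest for Il1r2 (3 normalised read counts) and Rps6 (334) and highest for Hif1a (2501), Mcoln1 (445) and Stard7 (1742). Replicate 1 of set 2 was lowest for Cyp51 (999) and highest for Ddit3 (76) and Ifnb1 (262). Replicate 3 of set 1 was lowest for Bcl2l11 (5795) and Klf6 (5409). Replicate 2 of set 1 was highest for Aldh1b1 (259) and replicate 1 of set 1 was highest for 9530027J09Rik (16). Groups of 3 samples were not checked.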

How the results depend on the processing

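The number of genes called against DMSO depended strongly on the processing. For MK-2206 (231 genes), it was 478 with no filter on low values, 347 with median-of-ratios scaling, 4 with the 12 samples alone, 15 with DMSO set 1 alone and 20 with set 2 alone, and it ran from 10 to 1496 with single libraries left out. For both drugs (569 genes), it was 0 with the 12 samples alone, 5 and 7 with either DMSO set alone, 0 without the libraries of high mitochondrial share, and 11 to 2029 with single libraries left out. With no filter, 180 genes were called for GSK-2110183 and 364 against the other 56 inhibitors, where 0 were called otherwise, apart from the block below. Against the PI3K/mTOR inhibitors (1521 genes), 479 were called without BGT226 and Omipalisib and 1036 to 1422 with single libraries left out. The causes were not tested, although fewer samples and a spread estimated from fewer groups are part of several settings by construction.

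A replicate block, with the replicate number as a term, gave 1932 genes for MK-2206, 2332 for both drugs, 1 against the other 56 inhibitors and 2480 against the PI3K/mTOR inhibitors. With the mitochondrial share added to the replicate block, these were 117, 61 and 2812 for MK-2206, both drugs and the PI3K/mTOR reference. The numbers were not taken as pairs for MK-2206 or for both drugs, since same-numbered samples correlated at -0.45 to 0.72 over 18 pairs (15 over 0.1) and MK-2206 replicate 2 did not follow its number.

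Direction turned for 6 of the values given in the text. Without BGT226 and Omipalisib, the log2 difference from the PI3K/mTOR inhibitors became 0.035 for Atf3, 0.20 for Atf4, 0.056 for Npy and 0.12 for Plau. With single libraries left out, the log2 fold change with GSK-2110183 ran from -0.64 to 0.15 for Dhx16 and from -0.41 to 0.083 for Retreg3. Among the other values of named genes over these settings, 2274 kept their direction and side of the threshold, 557 no longer passed and 19 newly passed.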
